A study of Bos taurus with 14 samples.

Results

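Neutrophils from the peripheral blood of 4 Holstein cattle (Bos taurus) were compared between day 0 and day 7 of an oral supplementation. All samples titled as neutrophils were taken, which are 8 of the 14 arrays of the series. The other 6 arrays hold liver of 3 different cattle. Animals 25, 26, 32 and 34, described as heifers or steers with no further detail and with no age given, each received β-cryptoxanthin, a carotenoid pigment that can be cleaved to vitamin A, by mouth on day 0, at 0.2 mg per kg of body weight. Each animal was sampled on day 0 and on day 7, and the day 7 value was set against the same animal's day 0 value. All 4 animals were treated and no untreated cattle were analysed here, so the supplement and any other effect of the 7 days cannot be told apart. The labels do not say how the neutrophils were isolated or how pure they were.

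Neutrophils are the short-lived phagocytes that leave the bone marrow fully differentiated, do not divide in blood, and carry granules of antimicrobial proteins. They follow chemoattractants such as leukotriene B4 and complement C5a into tissue, attach to the vessel wall through selectins and β2 integrins, and kill microbes with granule contents and with superoxide from the NADPH oxidase. Blood neutrophil preparations usually keep some lymphocytes, monocytes, eosinophils, platelets and red cells. In RNA from such bulk samples, fewer cells of a type and less RNA per cell cannot be told apart.

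Each gene was measured by 60-base oligonucleotides on 1-colour (Cy3) arrays, and levels are given as log2 of the processed spot signal relative to the 75th percentile of the same array. A level of 0 is that percentile. Levels of different probes are not set against each other. Values listed for the animals run in the order 25, 26, 32 and 34. The change is day 7 minus day 0, and its standard error (SE, n = 4 animals) comes from a paired limma fit.

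The probe sequences of 4 genes that the results turn on are shown, because the change measured in 1 animal varied with the base composition of the probe. Capitals mark G and C, and the sequences run 5′ to 3′ as in the array files. The first pair belongs to the leukotriene enzyme ALOX5 and the integrin ITGAM, the others to the eosinophil receptor CCR3 and the T cell receptor subunit CD3G.
ALOX5: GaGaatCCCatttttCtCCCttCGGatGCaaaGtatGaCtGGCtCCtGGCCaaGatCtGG
ITGAM: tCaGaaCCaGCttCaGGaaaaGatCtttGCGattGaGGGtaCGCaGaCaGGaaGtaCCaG
CCR3: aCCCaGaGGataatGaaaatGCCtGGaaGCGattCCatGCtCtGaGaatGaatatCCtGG
CD3G: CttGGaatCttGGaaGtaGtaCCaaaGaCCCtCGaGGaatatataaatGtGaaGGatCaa

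G and C make up 50% of the ALOX5 probe, 48.3% of the ITGAM probe, 45% of the CCR3 probe and 38.3% of the CD3G probe.

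The samples carried the transcripts of neutrophils. Of 34 listed neutrophil markers, 25 had a named probe and all 25 were measured, and 24 of them lay above the day 0 liver level, by a median of 5.66 on the log2 scale. S100A8, a calcium-binding alarmin that fills the neutrophil cytosol, stood at 7.43, 7.58, 7.41 and 7.73 on day 0. LTF, the granule protein lactoferrin, was the marker that lay lower than in liver. The markers CSF3R, CXCR2 and FPR1 and the primary granule enzymes MPO and ELANE have no named probe here.

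The share of spots well above background was 63.5 to 71.6% on the arrays of day 0 and 57.1 to 69.0% on those of day 7. All neutrophil arrays lay on 1 slide, with day 0 in its first row and day 7 in its second, so day and row cannot be told apart. Animal 34 had the dimmest day 7 array, whose median processed signal was 48.2, while the other 3 day 7 arrays had 100.2 to 163. Of 15011 probes, 9450 were tested, namely those well above background on all 4 arrays of either day. No probe passed an adjusted p of 0.05 in the paired limma fit in either direction (0.0% called higher and 0.0% called lower, smallest adjusted p = 0.301). At an unadjusted p under 0.05, 832 probes were higher on day 7 (8.8%) and 435 were lower (4.6%). Every value given for a gene is therefore a difference that did not pass the test over all probes. Changes of 1 sign in all 4 animals were found for 1060 probes higher (11.2%) and 1254 lower (13.3%). All day 7 values lay above all day 0 values for 458 probes (4.85%) and all below for 428 (4.53%). Those shares are the background against which the gene lists are read.

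The spread between animals was large. The SD over probes of the change was 0.57, 0.66, 0.77 and 1.35, and the median change over all tested probes was -0.14, -0.11, 0.08 and -0.12. In animal 34, 999 probes lay more than 2 log2 units below their day 0 value, against 18, 10 and 52 in the others. With the arrays weighted by their fitted variability, a limma setting that gave animals 25 and 26 weights of 4.34 and 1.91 and animals 32 and 34 weights of 0.42 and 0.29, 1171 probes passed as higher and 552 as lower, and 1057 of these 1723 had 1 sign in all 4 animals. A single limma fit over all 14 arrays, which borrows the spread of the liver arrays, called 22 higher and 2 lower.

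**Figure D1:**
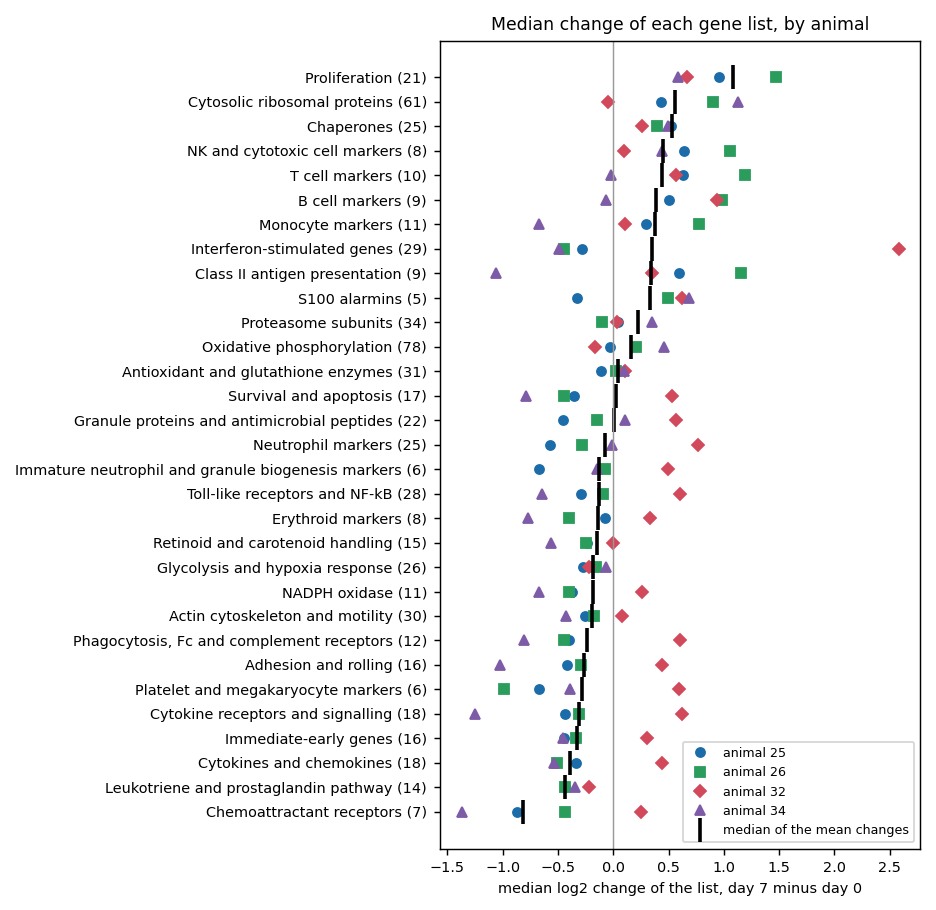
Median log2 change from day 0 to day 7 of each gene list in animals 25, 26, 32 and 34 (symbols) and the median over genes of the mean change (bar); the number of measured genes is in parentheses. The proliferation list lies to the right in all 4 animals, and the interferon-stimulated list stands at 2.58 in animal 32 and between -0.49 and -0.29 in the others.

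The transcripts that define the neutrophil itself showed no shared direction. Over the 25 measured markers the median change was -0.08, with medians of -0.57, -0.28, 0.76 and -0.01 in the 4 animals. None was higher in all 4 animals and 1, ITGAM, was lower in all 4, against 11.2% and 13.3% of all probes. S100A8 stood at 6.95, 7.92, 8.17 and 8.42 on day 7, a change of 0.33 ± 0.29 (SE). It was higher in 3 animals and lower in animal 25, and the days overlapped. S100A12, another S100 alarmin, had 0.18 ± 0.28. ITGB2, the β chain shared by the leukocyte integrins, differed least among these, with 6.30, 6.37, 6.40 and 6.52 on day 0 and 6.11, 6.21, 6.32 and 6.65 on day 7 (-0.08 ± 0.23). Their summed signal, as a log2 level, ranged from 9.93 to 10.16 on day 0 and from 9.59 to 10.64 on day 7.

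ITGAM, the α chain of the complement receptor Mac-1 that pairs with ITGB2 for phagocytosis and adhesion, was the marker that lay lower in every animal. Its level was -0.50, -0.97, -0.87 and -1.09 on day 0 and -1.70, -1.77, -1.60 and -3.34 on day 7. All day 7 values lay under all day 0 values, and the lowest was that of animal 34. The change was -1.24 ± 0.32 (SE, adjusted p = 0.306 in the paired limma fit). Of 16 measured adhesion and rolling genes, ITGAM alone was lower in all 4 animals and none higher, against 13.3% and 11.2% of all probes. Their median was -0.27, with -0.54 without animal 32 and -0.09 without animal 34. Without animal 32, 9 of the 16 were lower in each of the other 3 animals, where 33.7% of all probes were.

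Among the neutrophil function lists, the gene with the largest mean difference was ALOX5 of the leukotriene pathway. Leukotrienes are made from arachidonic acid by this 5-lipoxygenase with the help of ALOX5AP, and LTA4H then forms leukotriene B4. ALOX5 stood at 0.17, 0.57, 1.43 and 0.0018 on day 0 and at -1.44, -0.80, -0.76 and -4.28 on day 7. Every day 7 value was lower than every day 0 value, and animal 34 was again the lowest. The change was -2.36 ± 0.49 (SE, adjusted p = 0.301 in the paired limma fit), and without animal 34 it was -1.72. LTA4H was mixed, with changes of -0.43, -0.15, -1.98 and 0.54, and so was ALOX5AP (mean -0.08 ± 0.34). PTGER2, a receptor for prostaglandin E2, was lower in all 4 animals (-0.75, -0.46, -0.87 and -1.17, mean -0.81 ± 0.25), although its days overlapped. Of the 14 measured genes of the list, 13 had a negative mean change, 2 were lower in all 4 animals and none was higher in all 4. The count of 2 is near the share of all probes lower in all 4 animals, 13.3%. The median was -0.44, against -0.07 over all probes, and it was alike in the 4 animals (-0.43, -0.44, -0.22 and -0.34). Most of the 14 genes belong to the prostaglandin and thromboxane branch.

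**Figure D2:**
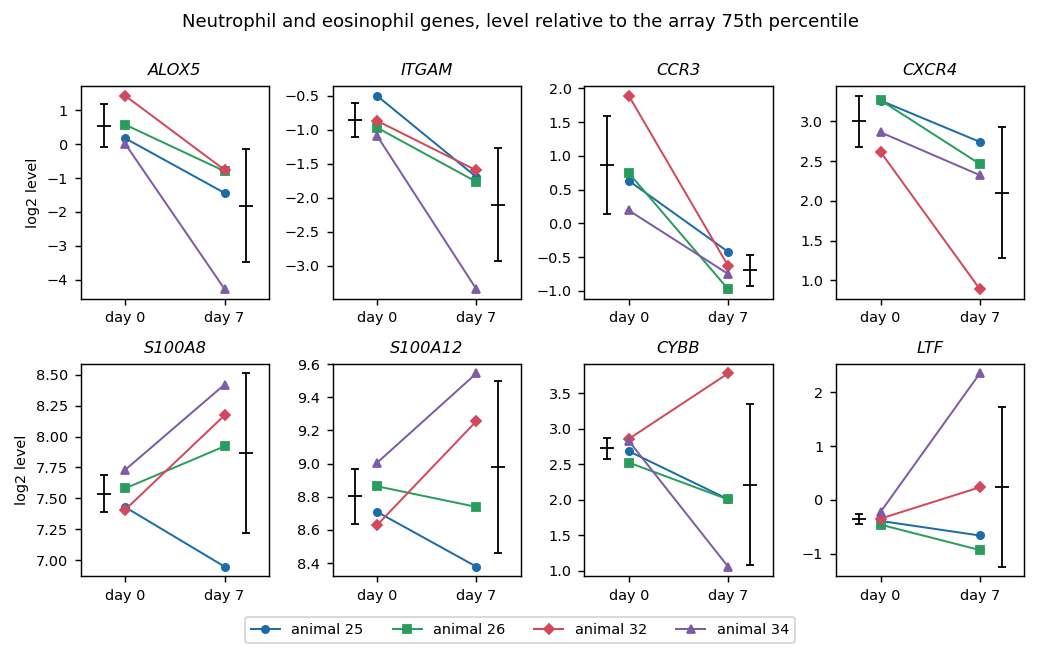
Log2 level of 8 neutrophil and eosinophil genes on day 0 and day 7, each line an animal, with the mean and SD (n = 4) beside each day. ALOX5, ITGAM and CCR3 show no overlap between the days, whereas S100A8, S100A12, CYBB and LTF differ in direction between animals.

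Chemoattractant receptors had a lower mean on day 7 for all 7 measured genes, with a median of -0.82 that was -0.24 without animal 34 and -0.86 without animal 32. CXCR4, the receptor for CXCL12 that holds neutrophils in the bone marrow, alone was lower in all 4 animals, against 13.3% of all probes. It stood at 3.26, 3.26, 2.61 and 2.86 on day 0 and at 2.74, 2.46, 0.89 and 2.32 on day 7 (-0.89 ± 0.29). The days overlapped, and animal 32 was the lowest. CCR1, a receptor of inflammatory CC chemokines, differed in sign between animals, with -1.41, -0.44, 1.25 and -6.59. C5AR1, the receptor of complement C5a, had -1.03, -0.10, 0.01 and -4.17, so that its mean of -1.32 rested mainly on animal 34.

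The NADPH oxidase, which assembles on the phagosome membrane, and the granule proteins showed no shared direction over the 4 animals. Of 11 measured oxidase genes none was of 1 sign in all 4 animals, and the median was -0.18 (-0.37, -0.40, 0.26 and -0.67), with -0.38 without animal 32 and -0.09 without animal 34. CYBB, the catalytic subunit gp91phox, stood at 2.68, 2.52, 2.86 and 2.83 on day 0 and at 2.01, 2.0, 3.78 and 1.06 on day 7 (-0.51 ± 0.43). It was lower in animals 25, 26 and 34 and higher in animal 32. PRKCD, a kinase that phosphorylates the cytosolic subunits, had -1.07, -0.57, 0.21 and -4.26. Without animal 32, 7 of the 11 genes were lower in each of the other 3 animals, where 3187 of 9450 probes were.

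Among 22 measured granule proteins and antimicrobial peptides, 5 were higher and 3 lower in all 4 animals, against 11.2% and 13.3% of all probes. Their median was 0.00, with 0.24 without animal 25 and -0.26 without animal 32. LAP, the lingual antimicrobial peptide of the β-defensin family, stood at -4.43, -4.53, -4.86 and -3.85 on day 0 and at -3.94, -3.48, -3.47 and -2.55 on day 7 (1.06 ± 0.26). It was higher in each animal while the days overlapped. β-defensin probes can share sequence between family members, so this value is uncertain as to which member it reports. CTSB, the lysosomal protease cathepsin B, was lower in each animal (-0.45, -0.27, -1.20 and -2.43). LTF had -0.27, -0.47, 0.58 and 2.58, with the highest value in animal 34. Of the 5 measured S100 alarmins, all had a positive mean change and none was of 1 sign in all 4 animals (median 0.33).

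Signalling genes of the inflammatory response were mixed. Of 28 measured Toll-like receptor and NF-κB genes, 2 were higher and 4 lower in all 4 animals, against 11.2% and 13.3% of all probes. The lower ones include IRAK2, which was well above background on no day 7 array. It was tested only because of its day 0 values, so its direction was set by that filter. Their median was -0.13, with -0.31 without animal 32 and -0.01 without animal 34. TLR3, a sensor of double-stranded RNA, stood at -3.89, -4.51, -4.41 and -3.90 on day 0 and at -3.03, -3.43, -3.77 and -3.42 on day 7, without overlap (0.76 ± 0.24). TRAF6, the ubiquitin ligase downstream of Toll-like receptors, was lower without overlap (-0.58, -0.50, -0.33 and -0.84, mean -0.57 ± 0.24). Cytokines and chemokines had 4 of 18 genes lower and 2 higher in all 4 animals, against 13.3% and 11.2% of all probes. Their median was -0.39 (-0.34, -0.51, 0.44 and -0.53 in the animals), and it was -0.20 without animal 25, -0.24 without animal 26 and -0.10 without animal 34. CCL3, a chemokine that draws leukocytes, had -0.80, -0.84, -0.55 and -1.80, and IL12B, a subunit of interleukin 12, had -0.62, -1.19, -0.68 and -1.08. Of 16 immediate-early genes, which respond within minutes to stimulation of cells, 2 were lower and 1 higher in all 4 animals, shares near those of all probes. The lower ones were DUSP6, a phosphatase that switches off ERK signalling (-0.92, -0.74, -0.37 and -1.27, no overlap), and FOS (-1.75, -0.71, -0.04 and -3.11). The list median was 0.30 in animal 32 and -0.45 to -0.34 in the others.

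Of 17 measured genes of cell survival, 1 was higher and 3 were lower in all 4 animals, against 11.2% and 13.3% of all probes. Their median was 0.03, and -0.24 without animal 32. BCL2L11, the pro-apoptotic protein BIM that drives neutrophil turnover, stood at 1.84, 2.39, 1.12 and 0.56 on day 0 and at 0.98, 0.68, -0.36 and -0.30 on day 7. It was lower in each animal (-1.23 ± 0.27, adjusted p = 0.301 in the paired limma fit), with overlap between the days. APAF1, the scaffold of the apoptosome, was lower in each animal with a mean of -1.30 (3 of the 4 arrays of day 7 were well above background), and CYCS, the cytochrome c that activates it, was higher without overlap with a mean of 0.98.

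Because β-cryptoxanthin is a source of vitamin A and an antioxidant, the genes of retinoid handling and of antioxidant defence were described as lists. Of 15 measured retinoid genes, 4 were lower in all 4 animals, 3 of them without overlap, and 1 was higher (median -0.15). Over all probes, 13.3% were lower in all 4 animals, 4.53% lower without overlap and 11.2% higher in all 4. RARA, the retinoic acid receptor α, stood at 6.59, 6.97, 6.31 and 6.45 on day 0 and at 5.92, 6.23, 6.31 and 4.73 on day 7 (-0.79 ± 0.32). Animal 32 hardly differed between its days and animal 34 differed most. The lowest day 0 and highest day 7 values of RARA, both from animal 32, are equal as rounded here. RARA is thus without overlap only by less than the rounding. DHRS9, a retinol dehydrogenase, stood at 1.76, 1.86, 1.80 and 1.83 on day 0 and at 1.38, 1.40, 1.17 and 0.53 on day 7 (-0.69 ± 0.27). RXRA, the partner receptor of RARA, had -0.73, -0.68, -0.44 and -3.71 with its brighter probe, whereas its other probe had a mean of 0.12 and no shared sign, so the probes disagree. AHR, the aryl hydrocarbon receptor, a ligand-activated regulator of xenobiotic genes that is not on the retinoid list, was lower without overlap. It stood at -1.35, -1.05, -0.49 and -1.33 on day 0 and at -2.47, -2.09, -2.16 and -2.39 on day 7 (-1.23 ± 0.25, adjusted p = 0.301 in the paired limma fit). Without animal 34, 5 of the 15 retinoid genes were lower in each of the other 3 animals, where 1950 of 9450 probes were, and without animal 32 it was 8, where 3187 probes were. The list median was -0.33 without animal 32 and -0.02 without animal 34.

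Of 31 antioxidant and glutathione genes, 5 were higher and 4 lower in all 4 animals, with a median of 0.04. Over all probes, 11.2% were higher and 13.3% lower in all 4. PRDX1, a peroxiredoxin that removes hydrogen peroxide, had the largest positive mean difference of the list, from 1.97, 0.97, 1.80 and 2.47 to 3.20, 2.65, 2.43 and 3.74 (1.20 ± 0.27). It was higher in each animal, and the lowest day 7 value lay just under the highest day 0 value. SQSTM1, the autophagy receptor p62, was lower without overlap, with a mean of -1.47. HMOX1, the haem oxygenase, was higher in each animal with a mean of 0.55.

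Neutrophils depend on glycolysis for energy. The list of glycolysis and hypoxia response genes, which also holds regulators such as HIF1A, had 6 of 26 genes lower and none higher in all 4 animals. Its median was -0.18, and -0.08 without animal 32. GPI, the glucose-6-phosphate isomerase, was lower without overlap (-1.10, -0.50, -1.43 and -3.12, mean -1.53 ± 0.43). The actin cytoskeleton and motility list had 5 of 30 genes lower and none higher in all 4 animals (median -0.19, and -0.33 without animal 32 or -0.09 without animal 34), among them ARPC1B, a subunit of the Arp2/3 complex (mean -1.0). Those counts are to be read against 13.3% of all probes lower and 11.2% higher.

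Transcripts of dividing cells had the highest list median. Of 21 measured proliferation genes, 13 were higher in all 4 animals and none lower, against 11.2% and 13.3% of all probes. Of the 13, 11 were higher without overlap between the days, against 4.85% of all probes. Both counts include CDK1, which entered the test only through day 7, the day on which it was brighter. The median change was 1.08, with 0.96, 1.47, 0.66 and 0.59 in the 4 animals. RRM2, a subunit of the ribonucleotide reductase that makes DNA precursors, stood at -3.23, -4.51, -3.67 and -2.56 on day 0 and at -1.87, -1.87, -1.64 and -1.97 on day 7 (1.66 ± 0.37). CCNB1, the mitotic cyclin B1, stood at -4.30, -5.32, -4.21 and -3.38 and then at -2.88, -2.69, -2.95 and -2.72 (1.49 ± 0.35). In both, animal 26 had the lowest day 0 value and all day 7 values lay higher than all day 0 values.

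CDK1, the kinase that CCNB1 activates, had changes of 1.67, 2.92, 1.03 and 0.93, and cleared the background on 3 of the 4 arrays of day 0 and all 4 of day 7. CKS1B, which binds that kinase, had 1.16, 1.63, 0.66 and 1.71, and GMNN, the replication licensing inhibitor geminin, 1.12, 2.07, 0.61 and 2.15. AURKA, a mitotic kinase, and KIF20A, a kinesin of cell division, had means of -0.30 and -0.22 and mixed signs, so not every member was higher. Which cells carried these transcripts was not tested.

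**Figure D3:**
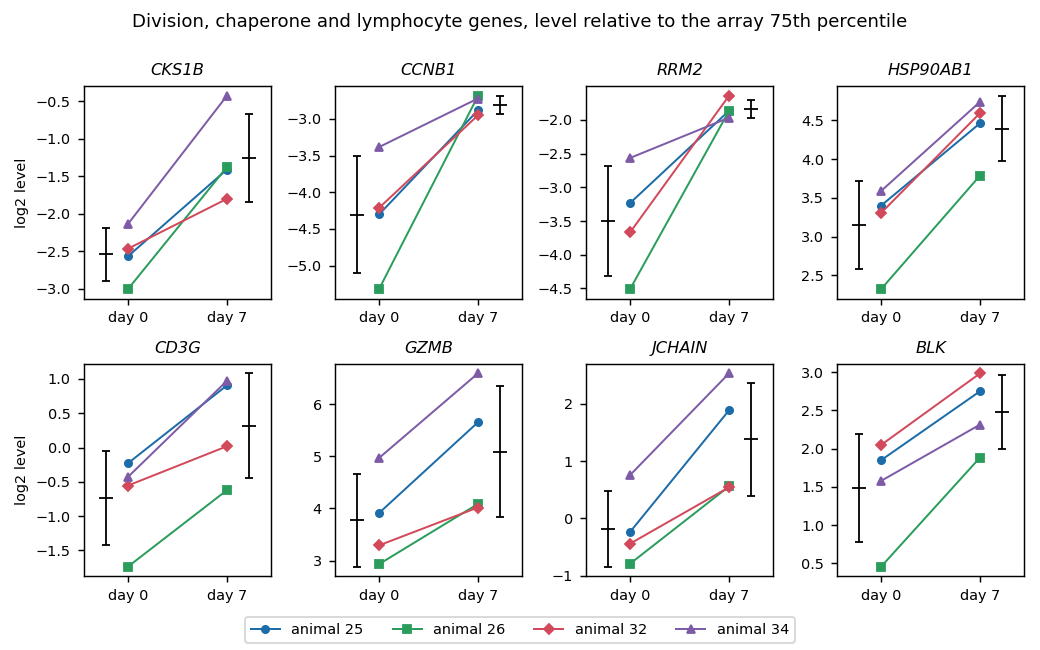
Log2 level of 4 genes of cell division and protein folding (CKS1B, CCNB1, RRM2, HSP90AB1) and of 4 lymphocyte genes (CD3G, GZMB, JCHAIN, BLK) on day 0 and day 7, each line an animal, with mean and SD (n = 4) beside each day. All lines run upward, and animal 26 has the lowest day 0 value in each panel.

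Chaperones, which fold newly made proteins, also had a positive list median. Of 25 genes, 12 were higher in all 4 animals, 8 of them without overlap, and 1 was lower. Over all probes, 11.2% were higher in all 4 animals, 4.85% higher without overlap and 13.3% lower in all 4. The list median was 0.53 (0.52, 0.40, 0.26 and 0.50). HSP90AB1, a constitutive HSP90, stood at 3.40, 2.33, 3.31 and 3.59 on day 0 and at 4.46, 3.79, 4.59 and 4.74 on day 7. Its changes of 1.06, 1.46, 1.29 and 1.15 lay close together (1.24 ± 0.23, adjusted p = 0.301 in the paired limma fit). The subunits of the cytosolic chaperonin CCT5, CCT4 and CCT3 were higher without overlap (1.05 ± 0.26, 0.99 ± 0.28 and 0.84 ± 0.25). Members that serve the endoplasmic reticulum differed among themselves, with 0.96 for HSP90B1 and mixed signs for CANX (-0.29) and HSPA5 (-0.26).

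Of 61 cytosolic ribosomal protein genes, the mean change was positive for every one, from 0.00 to 1.14, with a median of 0.56. In the animals taken singly, 55, 61, 23 and 53 of them were positive, and 18 were higher in all 4, against 11.2% of all probes. Animal 32 had a median of -0.05 and the others 0.43, 0.90 and 1.13. Without animal 32, 50 were higher in each of the other 3 animals, where 2007 of 9450 probes were. Under quantile normalization, 6 rather than 18 were higher in all 4 animals, so this count rests on the scaling.

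Lymphocyte transcripts were present on both days, and most had a positive mean change. Of 15 T cell markers with a named probe, 10 were measured, and 4 were higher in all 4 animals, against 11.2% of all probes. Over the 10, the mean change was positive for 8 and negative for 2, with a median of 0.44 (0.63, 1.19, 0.57 and -0.02). CD4, CD28, CTLA4, ICOS and CD6 did not meet the detection rule, and CD4 cleared the background on 1 array of day 0 and on none of day 7. CD3G stood at -0.23, -1.74, -0.55 and -0.43 on day 0 and at 0.90, -0.62, 0.02 and 0.97 on day 7 (1.05 ± 0.25). It was higher in each animal by 0.57 to 1.40, with overlap because animal 26 was low on both days. CD3E, a further subunit of the T cell receptor complex, was higher without overlap (0.68, 1.37, 0.48 and 0.53), and CD163L1, the WC1 molecule of bovine γδ T cells, had 0.59, 1.44, 0.59 and 0.89. CD8A had -0.12 in animal 32 and 0.83 to 1.69 in the others. The summed T cell signal, as a log2 level, lay between 4.57 and 5.37 on day 0 and between 5.29 and 5.82 on day 7.

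GZMB, the granzyme B of cytotoxic T and natural killer cells, stood at 3.91, 2.93, 3.29 and 4.97 on day 0 and at 5.65, 4.09, 4.02 and 6.59 on day 7. It was higher in each animal (1.31 ± 0.27, adjusted p = 0.301 in the paired limma fit), and the days overlapped. GNLY, a granulysin, had 0.84, 1.70, 0.36 and 0.63, and PRF1, the pore protein perforin, 0.23, 0.21, 0.64 and 0.20. In all, 4 of 8 measured cytotoxic markers were higher in all 4 animals and none lower, against 11.2% and 13.3% of all probes. The mean change was positive for 6 of the 8 and negative for 2 (median 0.45). KIR3DL1, KLRD1, NCR1 and FASLG did not meet the detection rule. KIR3DL1 cleared the background on 3 arrays of day 0 and on none of day 7. The summed log2 level of the measured markers lay between 3.31 and 5.12 on day 0 and between 4.29 and 6.65 on day 7. On day 7, GZMB alone stood at 5.65 and 6.59 in animals 25 and 34, where the sums were 5.81 and 6.65. There the sum mainly repeats GZMB.

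Of 9 measured B cell markers 3 were higher and 1 lower in all 4 animals, against 11.2% and 13.3% of all probes (median 0.39). JCHAIN, which joins immunoglobulin M and A into polymers in plasma cells, stood at -0.24, -0.79, -0.44 and 0.76 on day 0 and at 1.89, 0.56, 0.54 and 2.53 on day 7 (1.56 ± 0.28, adjusted p = 0.301 in the paired limma fit). BLK, a kinase of B cells and of some T cells, had 0.90, 1.43, 0.93 and 0.74. IGHM, the immunoglobulin μ chain, and MS4A1, the B cell antigen CD20, were higher in animals 25 and 26 but lower in animal 34, with -3.44 and -1.25 there. CR2, a complement receptor of B cells, was lower in each animal with a mean of -0.68, but was well above background on only 2 of the 4 arrays of day 7. The summed B cell log2 level spanned 3.17 to 3.93 on day 0 and 4.14 to 4.67 in the later samples. The part of these lymphocyte transcripts in the difference of the proliferation genes was not tested.

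Markers of antigen-presenting cells were less even. Of 9 class II genes 1 was higher in all 4 animals, against 11.2% of all probes. It was IFI30, a lysosomal thiol reductase that unfolds antigens (0.78, 1.59, 0.41 and 0.50, no overlap). The class II median was 0.59, 1.15, 0.35 and -1.07 in the 4 animals. Of 11 monocyte markers none was of 1 sign in all 4 animals, with medians of 0.29, 0.78, 0.11 and -0.67 and a summed log2 level between 6.72 and 7.34 on day 0 and between 6.48 and 7.51 on day 7. C1QB, a chain of complement C1q made by macrophages, had 1.18, 2.64, 0.11 and -1.03.

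Eosinophils, granulocytes that are separated together with neutrophils in many preparations, were represented by 2 measured genes. CCR3, the eotaxin receptor, stood at 0.63, 0.75, 1.89 and 0.19 on day 0 and at -0.42, -0.97, -0.63 and -0.75 on day 7 (-1.56 ± 0.33, adjusted p = 0.301 in the paired limma fit). It was lower without overlap, and animal 32, the highest on day 0, differed most. ALOX15, a 15-lipoxygenase abundant in eosinophils, was lower in animals 25, 26 and 32 (-0.74, -1.34 and -2.0) and higher in animal 34 (1.26). The summed log2 level of both lay between 5.49 and 7.09 on day 0 and between 4.72 and 6.99 on day 7. ALOX5 is expressed in eosinophils as well as in neutrophils, and the part of eosinophils in its difference was not tested.

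Summed platelet transcripts differed more between animals than between days. The summed red cell log2 level differed most between days in animal 32, with 3.32 on day 0 and 3.82 on day 7. That difference was wider than the span of the animals on day 0 but not than their span on day 7. GNG11, a G protein γ subunit abundant in platelets, stood at 5.34, 3.08, 0.35 and 1.33 on day 0 and at 4.04, 1.75, 0.97 and 2.19 on day 7. Animals 25 and 26 were the highest on day 0, as they were for CLU, clusterin (3.03, 1.96, -1.87 and -0.82), and for HBG, a haemoglobin chain (-1.65, -2.42, -5.26 and -4.19). The haemoglobin probes HBA and HBB were not well above background on any neutrophil array. The summed platelet log2 level lay between 2.34 and 5.75 on day 0 and between 2.87 and 4.66 on day 7, and the erythroid one between 3.30 and 3.64 and between 3.25 and 3.82. Of 3 basophil and mast cell markers on the array 1 was measured, and KIT was not well above background on any neutrophil array.

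Interferon-stimulated genes, which encode antiviral effectors, were higher on day 7 in animal 32. All 29 measured genes were positive in animal 32, 25 of them above 1 and 20 above 2, while 6, 4 and 9 were positive in animals 25, 26 and 34. Animal 32 had the highest change of the 4 animals for 27 of the 29. Of all 9450 probes, 20 had a change above 4 in animal 32, and 5 of the 29 genes had one. CXCL10, a chemokine induced by interferon γ, stood at -1.72, -3.42, -2.49 and -1.70 on day 0 and at -1.67, -3.16, 4.69 and -1.13 on day 7. GBP5, a guanylate-binding protein of cell-autonomous defence, had changes of -0.81, -0.50, 5.69 and -0.56, and GBP4 0.40, 0.88, 5.39 and 0.85. RSAD2, the antiviral enzyme viperin, had -0.91, -0.43, 5.35 and -2.99, and MX2, a dynamin-like antiviral GTPase, -0.83, -0.99, 4.93 and -5.33.

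**Figure D4:**
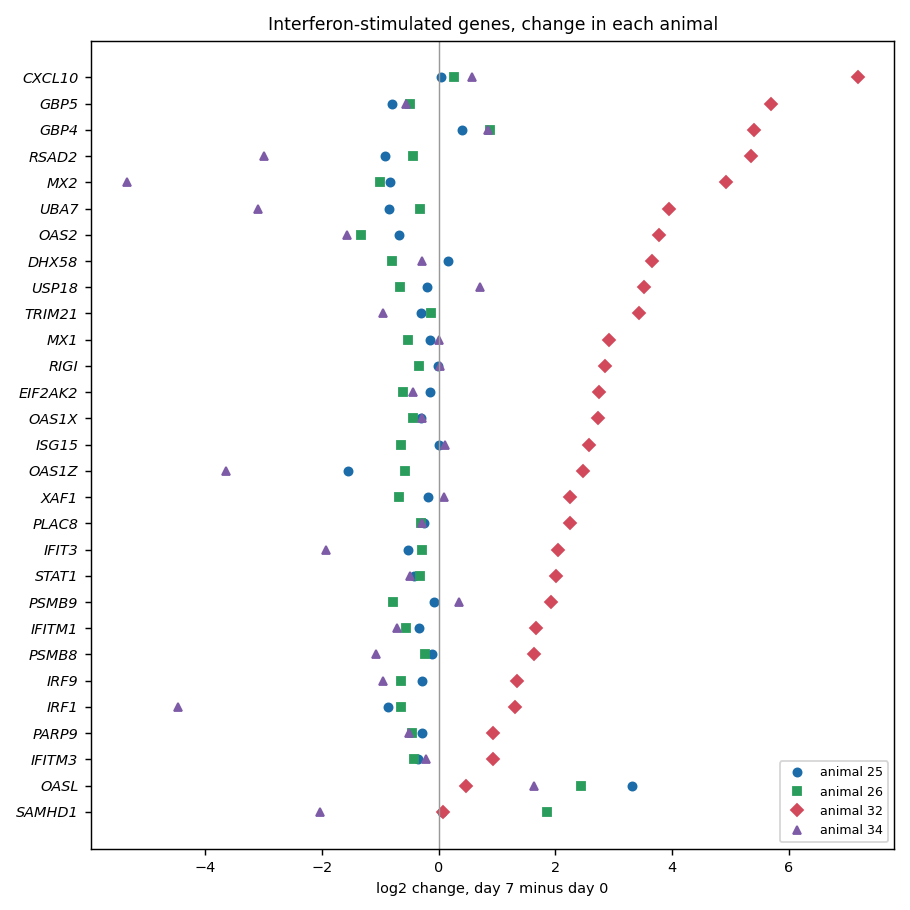
Log2 change from day 0 to day 7 of the 29 measured interferon-stimulated genes in each animal, ordered by animal 32. Animal 32 lies to the right for 27 genes, with 7.18 for CXCL10, while OASL and SAMHD1 are the exceptions.

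The list median was 0.35 with all animals and -0.40 without animal 32, so its direction over the group rested on 1 animal. OASL, an antiviral protein of the oligoadenylate synthetase family, went against the list. It stood at -5.15, -7.16, -0.16 and -5.14 on day 0, already high in animal 32, and at -1.83, -4.72, 0.30 and -3.51 on day 7. It cleared the background on 2 of the 4 arrays of day 0. OASL entered the test only through day 7, the day on which it was brighter, so its changes rest in part on values at background. ADM, the vasodilator peptide adrenomedullin and no interferon gene, was also highest in animal 32, with changes of 0.07, 0.38, 7.40 and -1.47. In this animal the neutrophil marker median (0.76), the NADPH oxidase median (0.26) and the chemoattractant receptor median (0.25) were positive, whereas they were negative in the other 3. The labels give nothing that sets animal 32 apart on day 7, and the cause was not tested.

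Animal 34 stood apart in another way. For probes with up to 35% G and C its median change was 0.42, for 35 to 40% it was 0.23, for 40 to 45% it was -0.20, for 45 to 50% it was -0.95 and above 50% it was -0.83. The other animals spanned -0.06 to -0.27, -0.04 to -0.21 and -0.05 to 0.29 over the same bins. Across the 9450 probes, which share their arrays and are not replicates, Spearman's rho of the change with the share of G and C was -0.18, -0.10, 0.17 and -0.36. ALOX5, ITGAM, GPI and C5AR1 had their lowest values in animal 34, with probes of 50%, 48.3%, 55% and 40% G and C. With a smooth trend on that share removed from every array, the changes were -2.21 for ALOX5, -1.12 for ITGAM, -1.51 for CCR3 and 0.97 for CD3G. The medians after that removal were -0.45 for the leukotriene and prostaglandin list, 1.05 for proliferation, 0.50 for chaperones and 0.39 for T cell markers, close to the values before it. The number of ribosomal protein genes higher in all 4 animals was 8 after it.

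**Figure D5:**
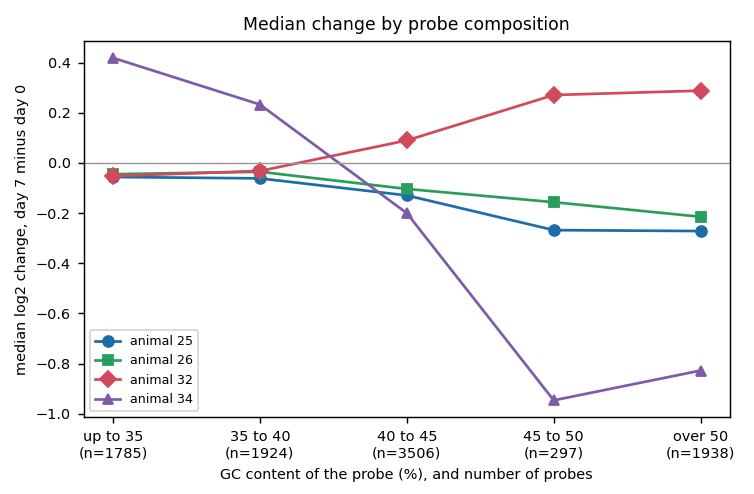
Median log2 change from day 0 to day 7 of all tested probes in each animal against the share of G and C in the 60-base probe, in bins with the number of probes given. Animal 34 runs from 0.42 for probes with up to 35% to -0.95 between 45 and 50%, and the other animals stay between -0.27 and 0.29.

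The genes with the smallest p-values included several outside these lists. HS3ST1, a heparan sulfate sulfotransferase, stood at -4.77, -3.95, -4.35 and -4.13 on day 0 and at -3.28, -2.40, -2.96 and -2.45 on day 7, with a nearly equal change in each animal (1.5, 1.55, 1.39 and 1.68, mean 1.53 ± 0.23). NCAPG2, a subunit of condensin II that compacts chromosomes in mitosis, had 1.47, 2.11, 1.36 and 1.13. PCLAF, a partner of the replication clamp PCNA, had 1.22, 2.23, 1.24 and 1.59, and MAD2L1, a spindle checkpoint protein, 1.46, 2.35, 0.83 and 2.20. BHLHE41, a transcriptional repressor of the circadian clock, had 1.49, 2.25, 1.27 and 1.13. FOCAD, ARHGAP24, HOMER1, KCNK1 and MOB3B were also among the 12 with the smallest p that were higher, beside JCHAIN. The last, HASPIN, a histone kinase of mitosis, had no day 0 array well above background and was at least 2.42-fold higher on day 7, counted against the lowest signal well above background. It was tested only because of its day 7 values, so its direction was set by that filter.

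Of the 12 with the smallest p that were lower, GPR4, a proton-sensing receptor, had -1.06, -0.87, -1.44 and -2.30. TRPC6, a calcium-permeable channel of neutrophils and other cells, stood at -1.05, -1.35, -1.04 and -1.17 on day 0 and at -1.79, -2.85, -2.03 and -3.32 on day 7. COQ8A, a kinase-like protein of coenzyme Q synthesis, had -0.84, -1.32, -2.14 and -1.81, and CAMK1, a calmodulin-dependent kinase, -1.46, -1.47, -2.04 and -0.52. INSR, the insulin receptor, and DNAJC30, a mitochondrial protein, were also lower in each animal. GLG1, a Golgi glycoprotein, had no day 7 array well above background and was at least 1.15-fold lower there. The same held for FBL, the nucleolar methyltransferase fibrillarin, for which no fold is given. No gene of these 24 had the opposite sign in any setting in which it was tested. All 24 passed with array weights, and 10 passed in the fit over all 14 arrays. The 24 were picked by smallest p on these same neutrophil arrays, so their kept signs and these calls are no independent support. Only 16 of the 24 were well above background on all 8 arrays. The other 8 (FOCAD, HASPIN, HOMER1, MOB3B, FBL, GLG1, DNAJC30 and INSR) entered the test through the day on which they were brighter, so their calls rest in part on values at background and are no support for a difference.

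Liver was used only to ask whether a neutrophil difference was shared by another tissue. For 8841 probes measured in both, the difference of the day effect passed an adjusted p of 0.05 for 37 probes with a more positive change in neutrophils (0.419%) and for 64 with a more negative one (0.724%), in a limma interaction over all 14 arrays. Among the genes named here, 7 passed. CCNB1 had 1.49 in neutrophils and -1.36 in liver, a difference of 2.85 (adjusted p = 0.0328, limma interaction), and CDK1 had 1.64 and -1.27, a difference of 2.91 (0.0376). In liver alone the decrease of both passed (adjusted p = 0.0403 and 0.0416, paired limma fit), whereas the neutrophil increase of neither did. Both differences therefore include a called decrease in liver. CDK1 was well above background on 4 of the 6 liver arrays and on 3 of the 4 neutrophil arrays of day 0, and CCNB1, PCLAF and CCNA2 on 5 of the 6 liver arrays, so these differences rest in part on values at background. JCHAIN differed by 2.04 (0.03) and HS3ST1 by 2.08 (0.017), and PCLAF, CCNA2 and NCAPG2 by 2.25, 2.01 and 1.70 (0.03, 0.0459 and 0.0403). With a trend over the spot rows removed from each array, the adjusted p of these 7 lay between 0.0506 and 0.113, so none passed. Tissue, slide and animals cannot be told apart in this comparison.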

How the data were processed

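RNA of peripheral neutrophils from 4 cattle on day 0 and day 7 was measured on 8 arrays, grouped and paired by the animal number in the labels. Per the labels' protocols, 200 ng of total RNA extracted with Trizol was amplified and labelled with Cy3. The intensity values are processed signals of Agilent Feature Extraction 9.5 (submitters' processing notes), which, per the file headers, had background subtracted and low values replaced by surrogates. The mean spot and background intensities deposited beside them are uncorrected and served 1 alternative. Flags and grid positions are other deposited columns. The authors' deposited table holds log2 values that equal log2 of the processed signal minus nearly the 75th percentile of each array (median offset 0.01, correlation over 0.9999), which settles their scale, centring and direction. No build was used and no coordinates are given.

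Control spots and outlier spots (0 to 18 per array) were left out, spots of 1 probe were averaged, and log2 of the signal minus the array's 75th percentile was taken. Probes well above background on all 4 arrays of at least 1 day were tested (9450) with limma 3.58.1 in R 4.3.3 (lmFit, eBayes), animal as a block, two-sided, with Benjamini-Hochberg adjustment over all of them. The script was tested on simulated data. Of 15011 probes, 2478 were named by accession, 1970 by gene number, 1475 by symbol, 1140 by stated similarity to a human gene and 61 by the file's name, while 4 had several names and 7883 none. A gene with several probes was read from the brightest. Pairing comes from the labels. The deviations of the paired samples from their group means correlated at 0.61, 0.36, 0.03 and 0.24 in animals 25, 26, 32 and 34.

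A set of 35 gene lists was described by counts and medians, with no test over a list. The members, lists and tests were chosen with earlier results of these data known. Genes named are, per direction, the 12 with the largest change among those that passed with 1 sign in all animals, filled by smallest p (0 qualified), the 6 with the largest SD of changes, and of each list up to 6 members by smallest p plus, for marker lists, up to 4 of highest signal. AURKA, KIF20A, CANX and HSPA5 and the markers that were not measured fall outside this rule and were named after their values were seen. A probe not well above background on 1 day is given as a bound against the lowest signal well above background. Alternatives were no block, other background correction, normalization and filters, the authors' values, array weights, all 14 arrays in 1 fit, removal of a trend over spot rows, each animal left out and, as a choice made with the data in view, subtraction of a trend on the share of G and C. The 4 animals limit the precision.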

Additional observations from a re-analysis of the deposited data

Results flagged for a closer look

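For 253 sets of 4 values (the changes of named genes, list medians and array measures), the distance of the extreme animal from the next was compared with the whole range. In 14 sets it passed the 95% limit of Dixon's test for 4 samples, where chance passes about 1 in 20 sets, so the number is near what chance gives. The sets include genes named for their spread between animals, among them CXCL10 and GBP5, for which passing is no independent evidence. Of the 14, 10 were extreme in animal 32, 3 in animal 34 and 1 in animal 26.

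Of these sets, 5 are interferon-stimulated genes or their list. The list median was 2.58 in animal 32, against -0.49 to -0.29 in the others. CXCL10 had a change of 7.18 (others 0.05 to 0.56), GBP5 of 5.69 (-0.81 to -0.50), GBP4 of 5.39 (0.40 to 0.88) and RIGI, a cytosolic RNA sensor, of 2.84 (-0.34 to 0.03). The immediate-early median was 0.30 in animal 32 (others -0.45 to -0.34), while MYC, a growth regulator on that list, went the other way with -0.51 (others 0.94 to 1.21). PRF1 had 0.64 in animal 32 (others 0.20 to 0.23), AHR had -1.67 (others -1.12 to -1.05) and GLG1 had -0.95 (others -2.41 to -2.23). GLG1 did not clear the background on day 7 in any animal, so nothing follows from its spread.

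In animal 34, RXRA had -3.71 (others -0.73 to -0.44), PGAM1, a phosphoglycerate mutase of glycolysis, had -3.46 (others -0.72 to -0.21), and TCF4, a transcription factor of plasmacytoid dendritic cells and B cells, had -1.64 (others 0.44 to 0.65). The day 0 array of animal 26 had a median processed signal of 109, against 133 to 138 on the other day 0 arrays.

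The day effect differed between neutrophils and liver by the limma interaction for 7 named genes, all with a more positive change in neutrophils. The differences were 2.91 for CDK1, 2.85 for CCNB1, 2.25 for PCLAF, 2.08 for HS3ST1, 2.04 for JCHAIN, 2.01 for CCNA2 and 1.70 for NCAPG2. Leaving out 1 animal brought the highest adjusted p of each to between 0.101 and 0.221.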

How the results depend on the processing

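No probe passed in the paired neutrophil comparison with no replicate block (706 higher and 325 lower at an unadjusted p under 0.05), other background correction, normalization or filters, the authors' values or trend removal, or with any animal left out (unadjusted counts of 336 to 1051 higher and 220 to 844 lower). Array weights called 1171 higher and 552 lower (1772 and 1842 unadjusted), and the fit over 14 arrays 22 and 2 (979 lower unadjusted). Without the filter on dim probes, 1355 were higher unadjusted. The interaction with liver called 17 higher and 59 lower with no replicate block, 2 higher and 3 lower with the row trend removed, and 1 to 118 higher and 11 to 142 lower with 1 animal left out. The leukotriene and prostaglandin median was -0.27 without the filter and -0.52 to -0.33 with 1 animal left out, the proliferation median 0.66 with normexp and quantile normalization and 0.86 to 1.16, and the chaperone median 0.30 to 0.51. Ribosomal protein genes higher in every animal numbered 4 with normexp and quantile normalization, 6 with quantile normalization, 8 with the G and C trend removed, and 18 to 50 with 1 animal left out. The cause was not tested. Of 218 named genes, 14 had the opposite sign without animal 34, 8 without animal 32 and 15 with array weights. The no-block fit altered no sign among them.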
